A study of Mus musculus with 4 samples.

Results

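Cytoplasmic dynein-1 and kinesin-1 are the motors that carry cargo along microtubules. The 10 genes described here code for subunits of these motors and were chosen by name, with earlier results of these data known. They are the dynein heavy chain Dync1h1, the intermediate chains Dync1i1 and Dync1i2, the light chains Dynll1, Dynll2 and Dynlrb1, the largest dynactin subunit Dctn1, and the kinesin-1 heavy chains Kif5a, Kif5b and Kif5c. All 10 had 1 row among the 27998 genes of the Illumina matrix and were among the 12549 genes with a UMI in the Nanopore matrices. Dynein moves toward the minus end of microtubules, which in an axon means toward the cell body, and needs the dynactin complex for long runs. Kinesin-1 moves toward the plus end. The intermediate chains hold the light chains and bind dynactin, so they link the motor to its cargo, and Dync1i1 and Kif5a are known as neuronal members of their families while Dync1i2 and Kif5b are found in most cells.

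The cells came from the pooled cortex, hippocampus and subventricular zone of a C57BL/6 mouse at E18, and no treatment or genetic change is named for any sample. One droplet emulsion was divided into an aliquot of 190 cells and an aliquot of 951 cells, and the cDNA of each was read on an Illumina sequencer (short reads that count molecules per gene) and on a Nanopore sequencer (long reads that show the exons of each molecule). A UMI is the random tag that marks 1 captured molecule. Both aliquots share 1 cell suspension, so every p-value below covers the technical spread between aliquots and says nothing of the spread between animals.

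After the filter on detected genes, 186 of 190 and 935 of 951 cells remained, with 1809081 and 8295650 Illumina UMIs and 993220 and 4889148 Nanopore UMIs assigned to an isoform. The kept cells of the aliquots shared 12 barcodes, and 10 of these pairs fell in the same class. Cells were clustered on Illumina counts without the motor and transport genes, and clusters were named from markers as radial glia-like (67 cells), cycling radial glia-like (117), intermediate progenitor-like (87), immature (231) and mature glutamatergic-like (280), immature (172) and mature GABAergic-like (145) and Cajal-Retzius-like (16). The immature GABAergic-like cluster was led by Ebf1, Isl1 and Foxp2 and the mature one by Sst, Maf and Nxph1. The part of cell type in comparisons of this pair was not tested. The named classes shared markers. The summed level of the 9 mature glutamatergic markers was 1806 and 1697 CPM in mature glutamatergic-like and 1649 and 1164 CPM in mature GABAergic-like cells, and of these 9 markers 4 and 5 were raised in the pair of clusters named mature glutamatergic-like. The 9 cycling markers, genes of dividing cells, summed to 4626 and 3236 CPM in radial glia-like and 6804 and 5314 CPM in cycling radial glia-like cells. The 11 radial glia markers summed to 3416 and 3099 CPM in cycling radial glia-like, 20430 and 23471 in radial glia-like and 3183 and 3359 in intermediate progenitor-like cells. Cycling radial glia-like cells also had 898 and 1111 CPM of intermediate progenitor and 1845 and 1850 of immature GABAergic markers. That name thus stands for dividing cells, which may not be radial glia alone. The 8 immature glutamatergic markers summed to 1401 and 1292 CPM in immature and 850 and 1126 in mature glutamatergic-like cells. Of these 8, 6 and 4 were raised in the pair of clusters named immature glutamatergic-like. The 9 immature GABAergic markers summed to 4831 and 4577 CPM in immature GABAergic-like, 2063 and 1642 in mature GABAergic-like and 1284 and 1239 in immature glutamatergic-like cells. Another 6 cells held RNA of endothelial cells, microglia or pericytes and were not classed. The classes were made from the counts of the same cells that the tests compare, and this choice is not part of any p-value. The 5 erythroid markers are globins and a heme enzyme that none of these classes should make in quantity. They summed to between 534 and 790 CPM in every class and aliquot, and free RNA as their source was not tested. Endothelial markers summed to at most 9 UMIs, microglial markers to at most 6 and pericyte markers to at most 23 in a class and aliquot. The 4 oligodendrocyte precursor markers summed to 135 and 160 CPM in cycling radial glia-like, 110 and 51.7 in intermediate progenitor-like and 11.1 and 52.0 in radial glia-like cells, with up to 159 UMIs, and to at most 7.98 CPM in the other classes. The part of these shared markers in the results was not tested. The median depth per cell ran from 4916 UMIs in mature GABAergic-like to 11388.5 in mature glutamatergic-like cells, so levels are given as CPM, the UMIs of a gene per 1000000 UMIs of that class and aliquot.

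The sequences below carry the isoform findings. Dync1i2 (chromosome 2, 71211706 to 71263303, plus strand, GRCm38) has a coding exon of 60 nt at chr2:71233649-71233708, exon 5 of the 17 exons of isoform Dync1i2-207, that isoform Dync1i2-201 skips. Dync1i1 (chromosome 6, 5725639 to 6028039, plus strand) has a coding exon of the same length at chr6:5784439-5784498, exon 5 of 17 in Dync1i1-204, that Dync1i1-201 skips. Both add 20 codons and keep the reading frame. Dctn1 (chromosome 6, 83165920 to 83200117, plus strand) has 3 consecutive coding exons of 21, 18 and 21 nt at chr6:83183936-83183956, chr6:83186428-83186445 and chr6:83187764-83187784, exons 5 to 7 of 32 in Dctn1-203, which Dctn1-201 lacks, together with an exon of 15 nt at chr6:83197319-83197333. Each sequence is from Gencode vM21 transcripts, with the alternative exons in capitals and 30 nt of each neighbouring exon in lower case.
Dync1i2-207: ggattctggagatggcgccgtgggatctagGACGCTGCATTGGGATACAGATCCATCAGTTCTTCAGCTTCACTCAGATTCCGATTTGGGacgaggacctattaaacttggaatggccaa
Dync1i1-204: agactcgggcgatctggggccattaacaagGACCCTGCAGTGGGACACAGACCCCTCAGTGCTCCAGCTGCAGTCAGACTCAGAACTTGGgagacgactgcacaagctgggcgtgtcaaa
Dctn1-203, exons 5 to 7: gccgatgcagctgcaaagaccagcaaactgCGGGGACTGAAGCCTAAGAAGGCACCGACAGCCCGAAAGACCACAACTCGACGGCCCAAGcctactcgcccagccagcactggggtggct
Dctn1-203, exon 27: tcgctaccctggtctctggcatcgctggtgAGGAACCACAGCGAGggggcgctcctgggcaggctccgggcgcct
The 2 intermediate chain exons were identical at 46 of 60 positions, compared without gaps.

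Dync1i1 was high in mature glutamatergic-like cells, with 186 CPM in the 190 cell aliquot and 136 in the 951 cell aliquot (101 and 368 UMIs). It had 19.1 and 15.8 CPM in immature glutamatergic-like cells, 16.6 and 5.08 in radial glia-like, 12.9 and 12.1 in cycling radial glia-like, 0 and 6.67 in intermediate progenitor-like, 40.9 and 23.1 in immature GABAergic-like and 0 and 19.0 in mature GABAergic-like cells. The values of mature glutamatergic-like cells did not overlap with those of any of these 6 classes, which describes both aliquots and is no test. Over both aliquots the level in mature glutamatergic-like cells was 8.83 times that in immature glutamatergic-like cells (exact 95% interval 6.10 to 13.2) and 8.75 times that in mature GABAergic-like cells (4.96 to 17.1), where intervals cover counting error only. Dync1i1 was also found in the Cajal-Retzius-like cells, early-born neurons of the cortical surface, with 63.9 and 199 CPM (2 and 25 UMIs), and these 16 cells were too few for the fit. Within the mature glutamatergic-like class, the cluster led by Nefl and Sla had 209 and 185 CPM and the cluster led by Crym and Fezf2 had 153 and 83.9. Dync1i1 was among the 10 leading genes of the former, although it was not used in the clustering. Of the immature glutamatergic-like clusters, the one led by Hs6st2 had 38.5 and 28.1 CPM and the one led by Tfap2d and Wnt7b had 0 and 6.83. Sla is on the list of immature glutamatergic markers. Tbr1, a mature glutamatergic marker, was among the 10 leading genes of the cluster led by Tfap2d and Wnt7b. The part of cell type in comparisons of mature and immature glutamatergic-like cells was not tested.

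The share of cells with at least 1 Dync1i1 UMI was 61.8% in mature glutamatergic-like cells (95% interval 55.8 to 67.5) and lay between 4.60% in intermediate progenitor-like and 14.0% in immature GABAergic-like cells in the other classes of the fit. When each cell was thinned to 2000 UMIs, no cell being shallower, the share was 21.8% in mature glutamatergic-like cells (17.1 to 27.1) and between 1.15% and 3.49% in these other classes. No class is known to lack Dync1i1, so no background share can be set, and the low shares were not read as expression in those cells.

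Dync1i2, the second intermediate chain, differed less between classes. It had 172 and 121 CPM in radial glia-like cells, 280 and 237 in mature glutamatergic-like cells and 280 and 296 in mature GABAergic-like cells. The radial glia-like values lay below those of both mature classes. Of the UMIs of both intermediate chains, Dync1i1 made up 39.9% and 36.5% in mature glutamatergic-like cells and 6.12% and 6.63% in immature glutamatergic-like cells. The 3′ UMI counts give 1 tag for each captured molecule, so these shares were not divided by transcript length.

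The heavy chain Dync1h1, the subunit that walks, had 38.8 and 67.3 CPM in radial glia-like, 68.2 and 91.7 in mature glutamatergic-like and 83.0 and 111 in mature GABAergic-like cells. The light chain Dynll1, which joins dynein intermediate chains and many other proteins into dimers, had 921 and 859 CPM in radial glia-like, 1309 and 1363 in mature glutamatergic-like and 1006 and 832 in mature GABAergic-like cells. Its paralogue Dynll2 had 83.2 and 74.9 in radial glia-like, 136 and 162 in mature glutamatergic-like and 301 and 233 in mature GABAergic-like cells, where both aliquots were above all other classes of the fit. The share of Dynll2 among the UMIs of both genes was 23.0% and 21.9% in mature GABAergic-like cells and 9.44% and 10.6% in mature glutamatergic-like cells. Dynll1 thus outnumbered Dynll2 in every class. Dynlrb1, a roadblock light chain, ran from 483 and 438 CPM in radial glia-like to 743 and 793 in mature glutamatergic-like cells. Dctn1, which links dynein to microtubules and cargo, ran from 44.4 and 54.6 in radial glia-like to 88.5 and 89.1 in mature glutamatergic-like cells.

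The 3 kinesin-1 heavy chains had different profiles. Kif5a had 1 and 2 UMIs in radial glia-like cells, 5.55 and 2.54 CPM, against 101 and 72.1 CPM in mature glutamatergic-like and 104 and 60.2 in mature GABAergic-like cells. Over both aliquots the ratio to radial glia-like cells was 24.8 for mature glutamatergic-like (8.40 to 121) and 21.3 for mature GABAergic-like cells (6.87 to 107), intervals as wide as 3 UMIs allow. Kif5c, a kinesin-1 heavy chain of neurons, had 94.3 and 93.9 CPM in radial glia-like cells, 465 and 490 in immature and 365 and 409 in mature glutamatergic-like cells, and 270 and 276 in mature GABAergic-like cells. The immature glutamatergic-like values were the highest for Kif5c among the classes of the fit. Kif5b, the heavy chain of most cells, had 194 and 198 in radial glia-like, 179 and 185 in mature glutamatergic-like and 218 and 170 in mature GABAergic-like cells. For Kif5b the mature GABAergic-like aliquots lay on either side of the other classes named here. Kif5b made up 66.0% and 67.2% of kinesin-1 heavy chain UMIs in radial glia-like cells and 27.7% and 27.8% in mature glutamatergic-like cells, where Kif5c had 56.6% and 61.4%.

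Between the ends of this range, cycling radial glia-like cells had 9.66 and 17.1 CPM of Kif5a (3 and 17 UMIs). Intermediate progenitor-like cells had 36.8 and 23.3 and immature glutamatergic-like cells 63.7 and 49.4. The 2 progenitor classes thus lay above radial glia-like cells and below the neuronal classes in both aliquots. This order was not tested. Kif5c had 116 and 126 CPM in cycling radial glia-like and 233 and 327 in intermediate progenitor-like cells. The last range overlapped with the 216 and 310 CPM of immature GABAergic-like cells. The share of cells with a Kif5a UMI, thinned to 2000 UMIs, was 1.49% in radial glia-like, 3.42% in cycling radial glia-like, 5.75% in intermediate progenitor-like, 9.52% in immature and 14.6% in mature glutamatergic-like cells, beside 4.48%, 15.4%, 19.5%, 32.0% and 53.9% before thinning. In the Cajal-Retzius-like cells, which rest on 3 and 13 cells, Kif5c had 575 and 518 CPM, above all other classes in both aliquots. Dync1i2 had 256 and 271 CPM there, within the range of the other neuronal classes.

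**Figure D1:**
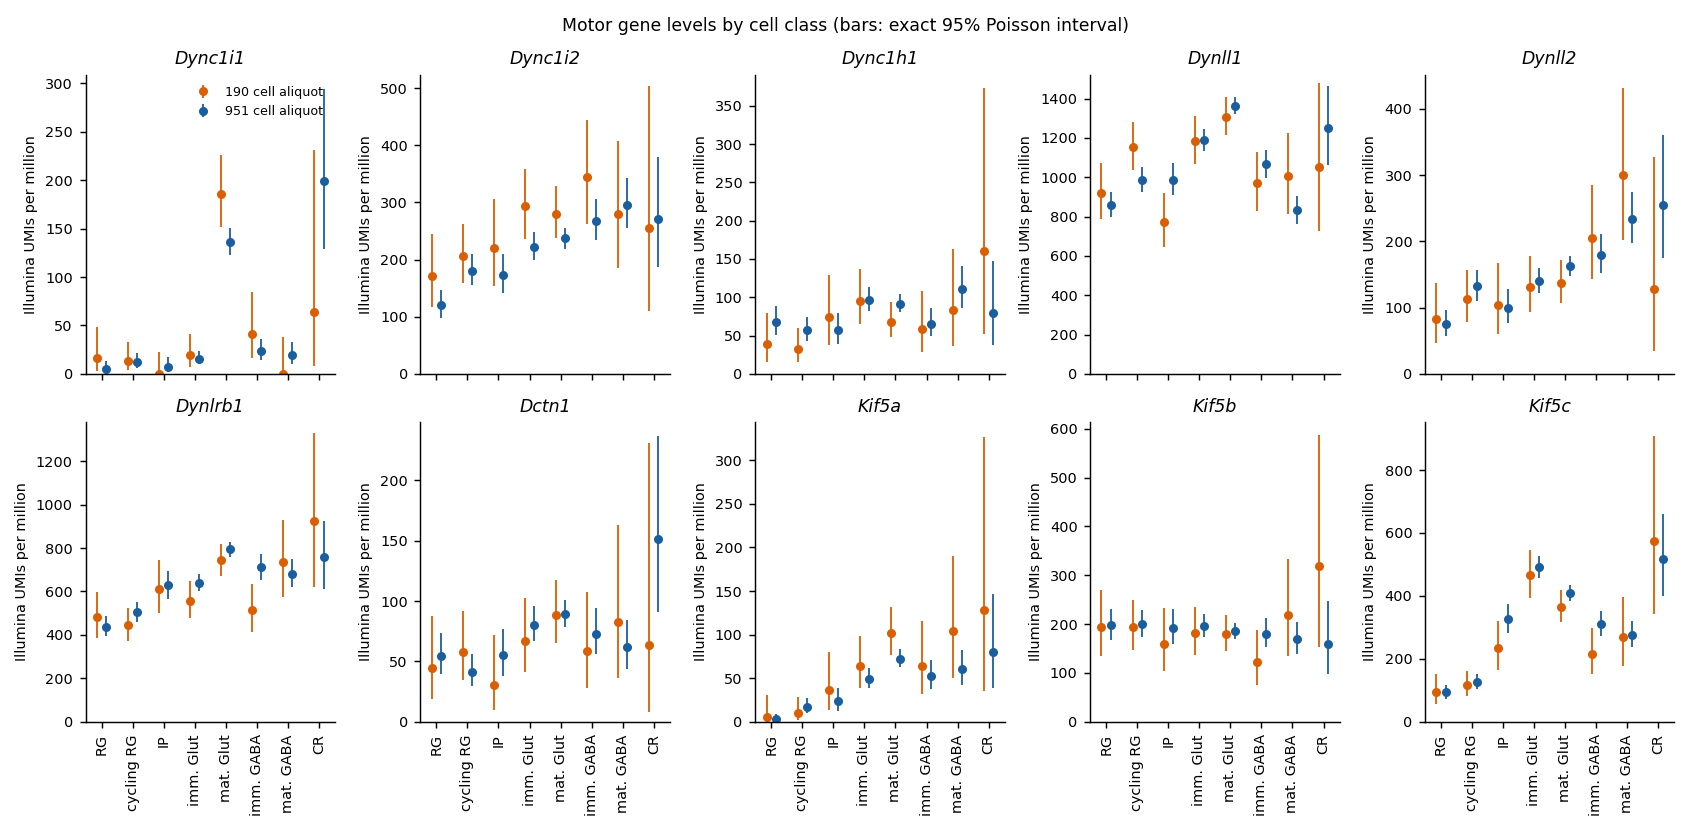
Illumina CPM (vertical axis, linear, from 0) for the 10 motor genes in each cell class (RG, radial glia-like; IP, intermediate progenitor-like; imm. and mat. Glut or GABA, immature and mature glutamatergic- or GABAergic-like; CR, Cajal-Retzius-like), with 1 point per aliquot and bars for the exact 95% Poisson interval. Dync1i1 stands high in mature glutamatergic-like and Cajal-Retzius-like cells, Kif5a and Kif5c are lowest in radial glia-like cells, and Kif5b lies between 123 and 320 CPM.

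**Figure D2:**
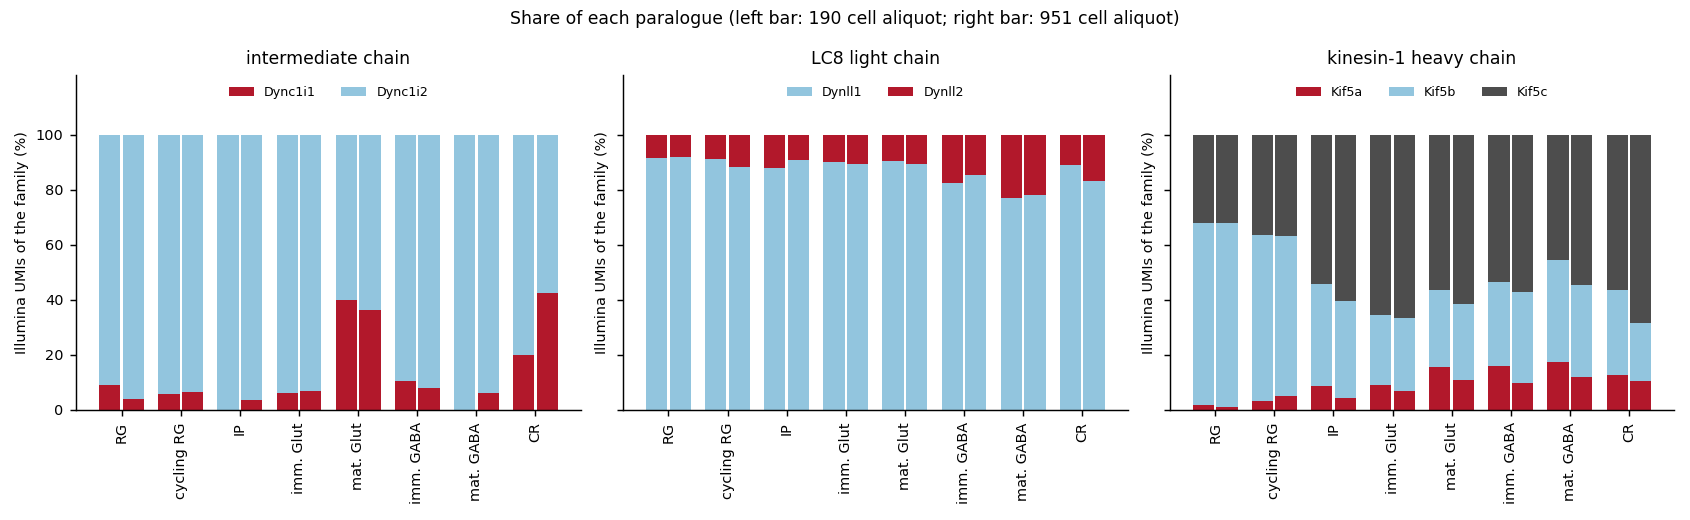
Share of each paralogue among the Illumina UMIs of its family (vertical axis, percent) by class, with the 190 cell aliquot as the left and the 951 cell aliquot as the right bar of each pair (class names as in the plot of levels). Dync1i1 makes up 39.9% and 36.5% of intermediate chain UMIs in mature glutamatergic-like cells, and Kif5b falls from 66.0% and 67.2% of kinesin-1 UMIs in radial glia-like to 27.7% and 27.8% in mature glutamatergic-like cells.

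The first question was how the motors differ between mature neurons and radial glia-like progenitors. Counts were summed per class and aliquot and tested in edgeR by quasi-likelihood, with p-values adjusted by Benjamini-Hochberg for all 8560 genes tested and a threshold of 0.05. In mature glutamatergic-like against radial glia-like cells 8 of 10 members were higher and none was lower, where 33.8% of all genes were called, 17.0% as higher and 16.9% as lower. Kif5a rose by a log2 fold change of 4.71 (SE 0.53, edgeR adjusted p = 1.26e-09), and Dync1i1 by 4.41 (SE 0.47, edgeR adjusted p = 3.31e-10). Kif5c rose by 2.09 (SE 0.22). The other 5 calls were smaller, with log2 fold changes of 1.01 for Dynll2, 0.93 for Dync1i2, 0.82 for Dctn1, 0.80 for Dynlrb1 and 0.64 for Dynll1. The call of Dctn1 (SE 0.28, edgeR adjusted p = 0.017) was lost without the 951 cell aliquot of either class, without the 190 cell aliquot of radial glia-like cells, with DESeq2 (adjusted p = 0.23) and on Nanopore UMIs (0.22, edgeR adjusted p = 0.76). That of Dync1i2 was lost without the 951 cell aliquot of radial glia-like cells (0.67, edgeR adjusted p = 0.11). Dync1h1 (0.53, SE 0.27, edgeR adjusted p = 0.14) and Kif5b (-0.06, SE 0.20, edgeR adjusted p = 0.87) did not pass. With the aliquot as a block, which the pairing of aliquots allows, Dync1h1 passed too (0.55, SE 0.23, edgeR adjusted p = 0.040), where 43.8% of all genes were called. The median over the members was 0.88, beside -0.01 over all genes tested.

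In mature GABAergic-like against radial glia-like cells 5 of 10 members were higher and none lower, where 31.3% of genes were called, 14.8% as higher and 16.5% as lower. These were Kif5a (log2 fold change 4.37, SE 0.59, edgeR adjusted p = 1.38e-07), Dynll2 (1.67, SE 0.24, edgeR adjusted p = 4.80e-07), Kif5c (1.48, SE 0.23), Dync1i2 (1.00, SE 0.23) and Dynlrb1 (0.56, SE 0.18). The calls of Dync1i2 and Dynlrb1 were lost without the 951 cell aliquot of either class (edgeR adjusted p from 0.074 to 0.19), and that of Dynlrb1 also without the 190 cell aliquot of radial glia-like cells (edgeR adjusted p = 0.063), with the 6 unclassed cells kept in their clusters (edgeR adjusted p = 0.077) and with DESeq2 (adjusted p = 0.089). Dync1i1 did not pass (1.04, SE 0.70, edgeR adjusted p = 0.28). Dync1h1 stood at 0.77 (SE 0.31, edgeR adjusted p = 0.053) and passed with the aliquot as a block (edgeR adjusted p = 0.021), where 38.0% of genes were called. Both comparisons share the radial glia-like sums.

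Mature against immature glutamatergic-like cells gave a call for 1 of 10 members, Dync1i1, at a log2 fold change of 3.30 (SE 0.36, edgeR adjusted p = 1.90e-08), where 3.56% of genes were called, 2.13% as higher and 1.44% as lower. With the aliquot as a block Kif5a (0.65, SE 0.20, edgeR adjusted p = 0.020) and Dynlrb1 (0.42, SE 0.10, edgeR adjusted p = 8.85e-04) were called as well, where 11.2% of genes were called. Mature against immature GABAergic-like cells gave a call for 0 of 10 members with edgeR and 0 with DESeq2, where edgeR called 2.80% of genes, 1.24% as higher and 1.57% as lower. In edgeR 0 of the 10 had an unadjusted p under 0.05. Dynll1 fell by 0.34 (SE 0.11, edgeR adjusted p = 0.033) with the aliquot as a block, where 5.89% of genes were called. The mature against immature difference of Dync1i1 was larger in glutamatergic-like than in GABAergic-like cells, by 4.16 on the log2 scale (SE 0.66, edgeR adjusted p = 5.37e-05 for the interaction). In this test 2.00% of genes were called, 1.27% as positive and 0.724% as negative, and no other member passed it without the block. With the block Dynll1 passed it too (0.58, SE 0.14, edgeR adjusted p = 0.0019), where 5.0% of genes were called.

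Between the mature classes, GABAergic-like cells had less Dync1i1 (log2 fold change -3.37, SE 0.43, edgeR adjusted p = 1.49e-07) and less Dynll1 (-0.67, SE 0.16, edgeR adjusted p = 0.0027), and more Dynll2 (0.65, SE 0.21, edgeR adjusted p = 0.039), where 8.93% of genes were called, 3.52% as higher and 5.41% as lower. The Dynll2 call was lost under 11 of its 14 alternatives, with adjusted p from 0.0074 to 0.44. The Dynll1 call was lost without the 951 cell aliquot of either class (edgeR adjusted p = 0.064 and 0.072). With the aliquot as a block Kif5c was lower in GABAergic-like cells (-0.64, SE 0.14, edgeR adjusted p = 2.08e-04), where 14.7% of genes were called. The mature glutamatergic-like cells were also the deepest class, with a median of 11388.5 UMIs against 4916, and the part of depth in these results was not tested.

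**Figure D3:**
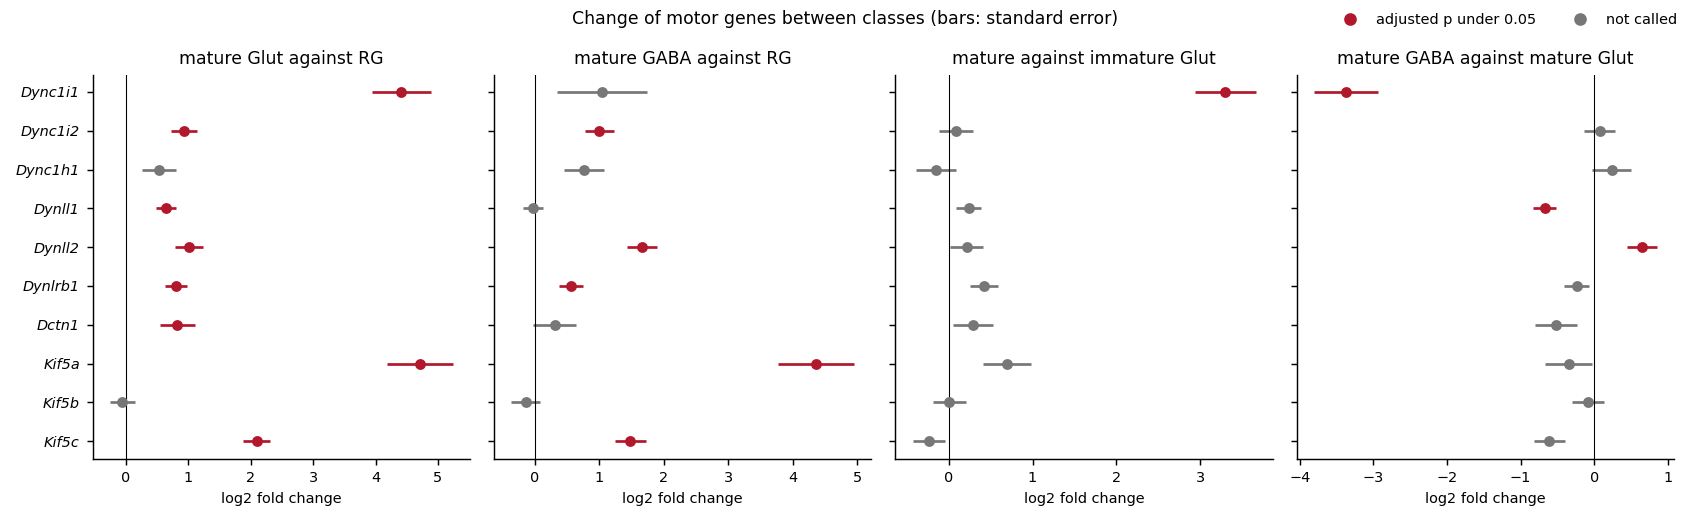
Log2 fold change of each motor gene (horizontal axis, bars for the standard error) in the 4 comparisons of classes named above the panels (names as in the plot of levels), with red points for an edgeR adjusted p under 0.05 and grey points for the rest. Kif5a and Dync1i1 have the largest rises in mature glutamatergic-like against radial glia-like cells, and Dync1i1 is the only member past the threshold between mature and immature glutamatergic-like cells.

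Among the other genes of these pathways, 51 of 64 listed genes entered the fit. In mature glutamatergic-like against radial glia-like cells 17 were higher and 1 was lower, with a median log2 fold change of 0.45, where 17.0% of all tested genes were higher and 16.9% lower. Of 17 tested dynein-1 and dynactin genes 3 were higher, of 10 dynein regulators and adaptors 3 were higher and 1 lower, of 3 kinesin-1 light chains 2 were higher, of 13 kinesin-1 adaptors 3 were higher and of 8 other transport kinesins 6 were higher. Nde1, a regulator of dynein in dividing progenitors, had 133 and 117 CPM in radial glia-like and 5.53 and 2.22 in mature glutamatergic-like cells. Kidins220, a membrane protein that binds kinesin-1, rose by 2.38 (SE 0.31), and Hook1, an adaptor for dynein, by 2.43 (SE 0.57). Jakmip1, a protein that binds microtubules and kinesin-1, had 0 and 1 UMI in radial glia-like and 48 and 281 in mature glutamatergic-like cells. In mature GABAergic-like against radial glia-like cells 15 listed genes were higher and 3 lower, where 14.8% and 16.5% of all tested genes were. Among them were Grip1 (3.07, SE 0.63), a cargo adaptor of kinesin-1, and the kinesin Kif21b (2.39, SE 0.39) as higher and Sybu (-3.19, SE 0.75), syntabulin, which links cargo to kinesin-1, as lower. Nde1 had 0 UMIs in mature GABAergic-like cells of both aliquots. Between mature and immature glutamatergic-like cells 2 were higher and 1 lower, namely Sybu (4.36, SE 0.61), Fez2 (1.53, SE 0.40) and Kif21b (-0.99, SE 0.22). These stand beside 2.13% and 1.44% of all tested genes. Between mature and immature GABAergic-like cells 0 passed. In the interaction of these comparisons 1 listed gene passed, Sybu at 4.66 (SE 1.28, edgeR adjusted p = 0.039). There 1.27% of all tested genes were positive and 0.724% negative. Between the mature classes 1 was higher in GABAergic-like cells and 5 were lower, where 3.52% and 5.41% of all tested genes were, with Grip1 at 2.18 (SE 0.49), Sybu at -3.45 (SE 0.70), Jakmip1 at -3.43 (SE 0.53) and Fez2 at -1.80 (SE 0.51).

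Over the 14 sums of class and aliquot, among 3017 genes whose mean reached 50 CPM, the profile most like that of Dync1i1 was Cox6a1 (Pearson r = 0.88), followed by Opcml (0.87) and Macrod2 (0.86). For Dync1i2 it was Zbtb12 (0.96), for Kif5a Nsg1 (0.97), for Kif5b Cops3 (0.84) and for Kif5c Arpc5 (0.96). These values are descriptions. The points share 2 libraries and 1 normalization.

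Long reads then showed the isoforms of those UMIs that matched 1 annotated isoform fully. Every one of the 35 member isoforms with a UMI was found in the annotation. Dync1h1-201, with 77 exons and 14342 nt, held 83 and 478 UMIs, all but 1 of the gene. The paper reported that some long transcripts were covered in pieces, with a bias to the 3′ end. How much of each Dync1h1 molecule was read was not examined. Kif5c-201 held all 376 and 2164 UMIs of Kif5c. Dynll1-201 held 97.8% and 98.2% of Dynll1, Dynll2-201 97.3% and 97.8% of Dynll2 and Dynlrb1-202 97.6% and 96.9% of Dynlrb1. For these genes nearly all assigned UMIs were of 1 isoform, whereas Dync1i1, Dync1i2 and Dctn1 had several. The assigned UMIs of these genes were from 59.2% (Dynll2) to 88.3% (Dynll1) of their Illumina UMIs in an aliquot. The isoforms of the rest are not known. Isoform usage was tested with diffSpliceDGE of edgeR on sums per class and aliquot, over 643 genes for which the filter on low counts left 2 or more isoforms. Of the members, Dync1i2 and Dynll1 entered this test.

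Dync1i2 changed its isoforms between radial glia-like cells and both mature classes. Its assigned Nanopore UMIs were 28.1% and 26.6% of its Illumina UMIs, so the shares below cover a part of its molecules. Molecules with the 60 nt exon made up 1 of 6 and 2 of 10 informative UMIs in radial glia-like cells, 5 of 15 and 16 of 35 in cycling radial glia-like cells and 6 of 6 and 18 of 23 in intermediate progenitor-like cells. In immature glutamatergic-like cells they were 32 of 32 and 81 of 83, in mature glutamatergic-like cells 37 of 37 and 172 of 172, and in mature GABAergic-like cells 12 of 12 and 63 of 63. Immature GABAergic-like cells had the exon in 10 of 12 and 45 of 48. The exact 95% interval over both aliquots was 4.05% to 45.6% in radial glia-like and 98.3% to 100% in mature glutamatergic-like cells, so these intervals do not overlap. The call was edgeR adjusted p = 1.53e-08 for mature glutamatergic-like and 1.99e-06 for mature GABAergic-like against radial glia-like cells, where 15.4% and 12.1% of genes were called. It was not called in the other 3 comparisons, where 2.02%, 0.933% and 1.71% were. Dynll1 was not called in any of the 5 (edgeR adjusted p from 0.80 to 0.97). When the motor genes were kept in the clustering, Dync1i2 lost the call (edgeR adjusted p = 0.29 and 0.76). Dync1i2-201 then failed the filter and 2 of 3 isoforms were tested. The classes changed too, with 99 radial glia-like cells in place of 67 and no cluster named intermediate progenitor-like.

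The start of Dync1i2 also had unlike shares between classes. This was not tested apart from the 60 nt exon, since the isoform test takes the gene as a whole. The first exon ended at position 71211845 or 71212074 of chromosome 2. The share of UMIs with the nearer end was 16.7% and 10.0% in radial glia-like cells (1 of 6 and 1 of 10 UMIs). It was 62.5% and 69.9% in immature and 75.7% and 75.6% in mature glutamatergic-like cells. In mature GABAergic-like cells it was 66.7% and 49.2%. Mature glutamatergic-like cells used Dync1i2-207 for 28 and 128 UMIs and Dync1i2-202 for 9 and 42, both with the 60 nt exon, whereas radial glia-like cells used Dync1i2-201 for 4 and 8 UMIs.

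Dctn1 was read in fewer molecules, and its assigned Nanopore UMIs were 20.8% and 24.7% of its Illumina UMIs. The 3 consecutive exons were in 0 of 1 and 0 of 15 UMIs of radial glia-like cells, 3 of 7 and 7 of 18 of cycling radial glia-like, 4 of 9 of intermediate progenitor-like in the 951 cell aliquot with no informative UMI in the other, 3 of 3 and 29 of 30 of immature glutamatergic-like, 10 of 10 and 45 of 45 of mature glutamatergic-like, 1 of 1 and 12 of 15 of immature GABAergic-like, and 2 of 2 and 9 of 10 of mature GABAergic-like cells. The exact interval over both aliquots was 0% to 20.6% in radial glia-like and 93.5% to 100% in mature glutamatergic-like cells. The 15 nt exon was in 0 of 16 and 55 of 56 UMIs of these classes. With all sums the filter on low counts left too few Dctn1 isoforms for a test. Without this filter it was called against radial glia-like cells in mature glutamatergic-like (edgeR adjusted p = 1.71e-10) and mature GABAergic-like cells (edgeR adjusted p = 0.0049), where 2.30% and 1.05% of 7615 genes were called. It was not called without the filter in the other 3 comparisons, where 0.0131%, 0% and 0.0919% were. The single radial glia-like UMI of the 190 cell aliquot leaves this change to rest on the 951 cell aliquot on that side.

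**Figure D4:**
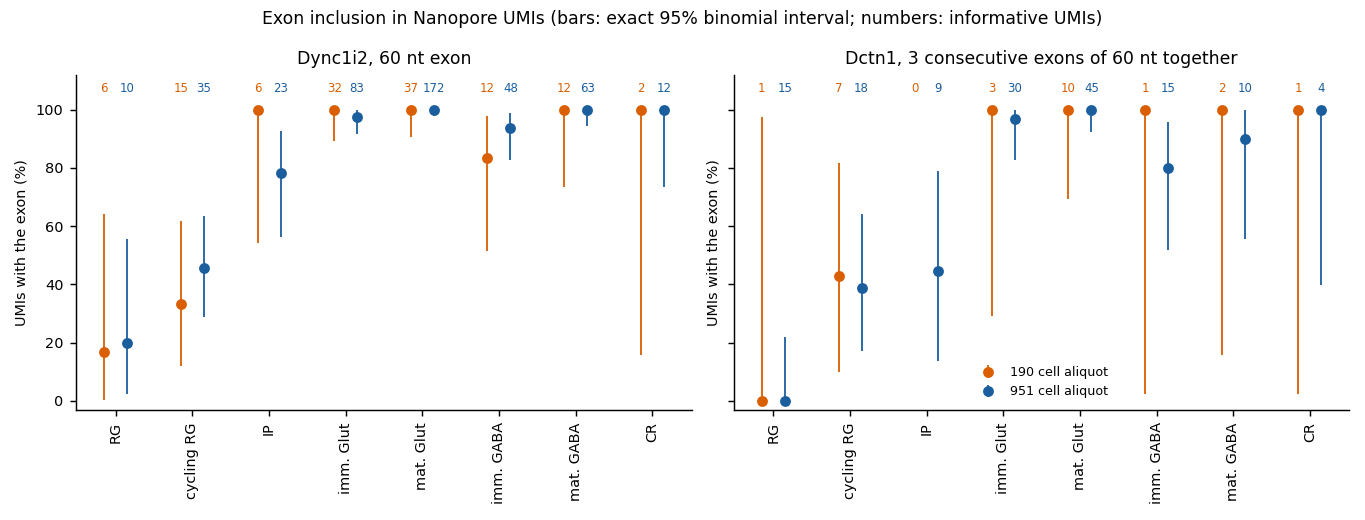
Share of informative Nanopore UMIs (vertical axis, percent) that held the 60 nt exon of Dync1i2 (left) and exons 5 to 7 of Dctn1 (right) by class, with 1 point per aliquot, bars for the exact 95% binomial interval and the number of informative UMIs above (class names as in the plot of levels). Radial glia-like cells have the lowest shares of both, and both aliquots of mature glutamatergic-like cells stand at 100%.

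Dync1i1 was read by Nanopore as 3 coding isoforms and 1 of 3 exons with a retained intron, Dync1i1-206. Of the 279 UMIs of coding isoforms, 253 came from mature glutamatergic-like cells, 10 from Cajal-Retzius-like cells and 16 from the other classes. The coding isoforms were thus almost all from cells with a high gene count. Of the 50 UMIs of Dync1i1-206, 12 came from mature glutamatergic-like, 2 from Cajal-Retzius-like and 36 from the other classes. In immature GABAergic-like cells all 5 and 13 Dync1i1 UMIs were of Dync1i1-206, which leaves a share of up to 18.5% for coding isoforms by the exact interval. In mature glutamatergic-like cells the 60 nt exon was in 40 of 59 and 151 of 194 informative UMIs, 67.8% and 77.8%, below the share of the matching exon of Dync1i2 in the same cells. Immature glutamatergic-like cells had it in 3 of 3 and 9 of 11. With all sums the filter on low counts left too few Dync1i1 isoforms for a test. Radial glia-like cells had 3 Dync1i1 Nanopore UMIs in all and mature GABAergic-like cells 0 and 6, so no call on isoform usage of Dync1i1 is given against these classes.

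The platforms were compared on library sums, 4 in all, over 9840 genes, where 50.5% were called, 20.1% as higher and 30.3% as lower on Nanopore. Of the 10 members 7 were called. The fold changes compare levels scaled to library size, and the Nanopore libraries held fewer UMIs. Scaled levels were higher on Nanopore for Dynll1 (log2 fold change 0.70, SE 0.08), Dynlrb1 (0.56, SE 0.10) and Kif5c (0.55, SE 0.14). Each of these genes still had fewer Nanopore than Illumina UMIs in both aliquots. This follows from the method, in which Nanopore UMIs were sought among the Illumina UMIs of the same cell and gene or region. The libraries of an aliquot are thus not independent. Scaled levels were lower for Kif5b (-2.31, SE 0.14, edgeR adjusted p = 1.98e-04), Kif5a (-2.22, SE 0.34, edgeR adjusted p = 0.0036), Dctn1 (-1.14, SE 0.15) and Dync1i2 (-0.94, SE 0.15). Kif5b had 327 and 1562 Illumina UMIs but 29 and 176 Nanopore UMIs, and Kif5a had 110 and 394 against 18 and 38. Kif5c had 516 and 2742 against 376 and 2164. The main isoforms of Kif5a, Kif5b and Kif5c are 6295, 6032 and 6856 nt long, and Dync1h1, with 14342 nt, was not lower on Nanopore (0.43, SE 0.16, edgeR adjusted p = 0.075). Nanopore counts hold only UMIs that matched 1 annotated isoform, and the cause of these gaps was not tested.

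**Figure D5:**
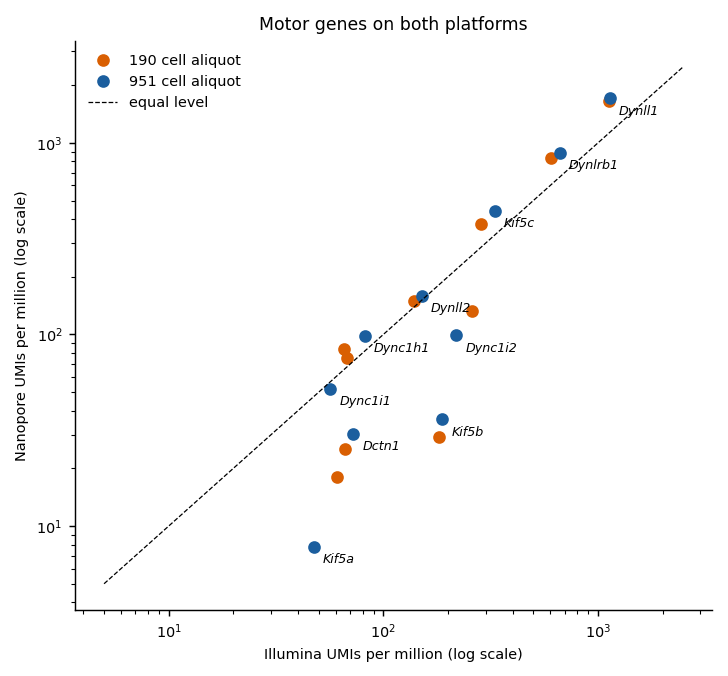
Nanopore against Illumina CPM (both axes logarithmic) for the 10 motor genes, with 1 point per aliquot and a dashed line at equal levels. Kif5a and Kif5b lie farthest below the line in both aliquots, while Kif5c and Dync1h1 lie above it.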

How the data were processed

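Dissociated E18 mouse brain cells were captured with 10x Genomics chemistry and sequenced on both platforms. For Illumina, the authors deposited unnormalized UMI counts for each gene in each cell, made with Cell Ranger 2.0 on mm10. For Nanopore, the authors deposited unnormalized UMI counts for each Gencode isoform, from reads mapped with minimap2 and assigned to barcodes and UMIs with the help of the Illumina data. A UMI counted when it matched 1 annotated isoform fully.

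Cells with fewer than 1400 genes (5% of 27998) were left out. Seurat 5.3.0 integrated the aliquots by anchors and clustered the Illumina data on 1993 variable genes without motor and transport genes (11 dimensions, resolution 0.8), and clusters were named from marker lists. Doublets (4 and 5 cells, called with Scrublet in scanpy 1.11.5) were kept. Counts were summed per class and aliquot. A class needed 5 cells in both aliquots, which 7 met, to be fitted in edgeR 4.0.16 under R 4.3.3, with TMM scaling and the low-count filter of filterByExpr. DESeq2 1.42.0 was an alternative. A standard error is the log2 fold change over the root of F. Intervals are exact, at 95%, and cover counting error only. The tests were checked on simulated counts.

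The aliquot number pairs the sums, since each aliquot is 1 emulsion fraction and library. The deviations of same-numbered sums had correlations from 0.142 to 0.389 in 21 class pairs (median 0.249), and 0.582 between platforms. Exon coordinates and sequences were taken from Gencode vM21, whose assembly GRCm38 is mm10, while the authors used an earlier Gencode release. The members, gene lists and rules were chosen with earlier results of these data known. The text names the 10 members, their isoforms with at least 5% of a class of at least 20 UMIs, up to 3 called list genes in each direction per comparison, and the genes most like 5 members by Pearson r of log2(CPM + 10). Isoforms below this rule (Dync1i1-206) and Dctn1 tests without the filter were chosen after their values were seen.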

Additional observations from a re-analysis of the deposited data

Results flagged for a closer look

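The mature against immature difference of Dync1i1 was larger in glutamatergic-like than in GABAergic-like cells, by 4.16 on the log2 scale (SE 0.66, edgeR adjusted p = 5.37e-05 for the interaction). It stood at 3.30 in glutamatergic-like cells and at -0.86 (SE 0.55, edgeR adjusted p = 0.635) in GABAergic-like cells, where mature cells had 0 and 12 UMIs. The GABAergic-like classes also differed in their leading genes, Ebf1, Isl1 and Foxp2 in the immature and Sst, Maf and Nxph1 in the mature class. The part of cell type in this result was not tested. Over both aliquots, coding isoforms were 0 of 18 Dync1i1 Nanopore UMIs in immature and 1 of 6 in mature GABAergic-like cells. They were 14 of 15 in immature and 253 of 265 in mature glutamatergic-like cells. The rest were of the isoform with a retained intron. The gene counts of this test do not separate these forms, and their part in the result was not tested. Over 18 alternatives the lowest difference was 3.27, and adjusted p ran from 4.10e-08 to 0.0034. Without the mature GABAergic-like sum of the 951 cell aliquot that class had 0 UMIs of Dync1i1, so the fitted difference under this alternative is no bound and is not given.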

How the results depend on the processing

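No member called in the main fit changed direction under an alternative. The direction of members that were not called was not compared. With the replicate block, which uses the pairing of the aliquots, the counts of called members were 3 for mature against immature glutamatergic-like and 1 for mature against immature GABAergic-like cells. For the interaction of these 2 comparisons the count was 2, and no call was changed beyond those given above. For isoform usage without a filter, with or without the motor genes in the clustering, 3 members were called for mature glutamatergic-like and 2 for mature GABAergic-like against radial glia-like cells and 1 between the mature classes. With the motor genes left out, 2.30%, 1.05% and 0.0919% of 7615 genes were called in these comparisons. Dync1i1 was 1 of the 3 and the call between the mature classes. It had 3 Nanopore UMIs in radial glia-like and 0 and 6 in mature GABAergic-like cells, so its calls are not read as results. With clustering on all variable genes alone the counts of called members were 0 and 0 against radial glia-like cells. There 1 isoform fewer of Dync1i2 was tested, and the classes differed too. Leaving out 1 aliquot of 1 class gave 6 to 8 members for mature glutamatergic-like and 3 to 6 for mature GABAergic-like against radial glia-like cells, 1 to 2 between the mature classes, and for isoform usage 1 to 3, 1 to 2 and 0 to 1 in these comparisons. The lone sum of a class is there assumed to vary like the other classes. The shares of all genes called in these fits are not given here. A change in these counts is thus not read as a result about the members. The isoform calls that these fits added were of Dync1i1 and Dctn1, and those of Dync1i1 are not read as results.

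Over all genes, counts that moved by more than 1.5 times ran from 1506 to 1669 in place of 2894 and from 1119 to 1605 in place of 2676 against radial glia-like cells. They ran from 75 to 959 in place of 305 and from 84 to 504 in place of 240 for mature against immature glutamatergic-like and GABAergic-like cells. Between the mature classes they ran from 278 to 1258 in place of 764, and for the interaction from 56 to 428 in place of 171. The upper ends of the last 4 came from the replicate block. For isoform usage they ran from 43 to 185 in place of 99, 33 to 49 in place of 78, 1 to 39 in place of 13, 0 to 12 in place of 6 and 0 to 7 in place of 11, in the order of the report. DESeq2 called 3063 genes between platforms in place of 4967.

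The alternatives that leave out cells with a shared barcode, keep the 6 unclassed cells, drop 1 cluster of a class, or join clustering on all genes with no filter were chosen after seeing the data. Dync1i2 and Dctn1 had 16 informative UMIs each in radial glia-like cells, which limits these shares.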
